A study of Mus musculus with 7 samples.

Results

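The glucocorticoid receptor and 9 of its textbook direct target genes were followed in mouse muscularis macrophages, resident phagocytes of the gut's muscle coat. The 10 genes were taken by name from the deposited table, and all 10 were among its 17209 listed genes. They are the receptor Nr3c1 and the targets Fkbp5, Tsc22d3, Zbtb16, Klf9, Per1, Ddit4, Sgk1, Mt1 and Mt2. The muscle layer was stripped from small intestines of C57BL6/J mice 24 h after surgery, and CX3CR1-GFP+ cells, in which GFP reports the fractalkine receptor, were sorted from it. There were 3 libraries from mice that had pMCAO surgery, a stroke by the series title, numbered pMCAO 1 to 3. They were set against 4 libraries from mice that had sham surgery, numbered Sham 1 to 4. The labels do not give the age of the mice or say whether a library came from a single animal. A pool is named in the label of pMCAO 3, and p-values measure the spread between these libraries, which may be partly technical.

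Glucocorticoids are steroid hormones that the adrenal gland releases in stress. They bind the receptor in the cytoplasm, where it is held by HSP90 and its co-chaperones, and the bound receptor enters the nucleus. There it binds palindromic DNA elements near its target genes and activates them, and it also restrains inflammatory genes that AP-1 and NF-kB drive. Macrophages express the receptor at high levels and are a main target of the anti-inflammatory action of these steroids.

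Library totals were 12685941 to 21680302 counts after pMCAO and 18873893 to 34432716 counts after sham surgery. The macrophage genes Cx3cr1, Csf1r and Adgre1 averaged 174.6, 1813 and 1033 CPM (counts scaled to library size with TMM factors) after pMCAO, against 255.9, 2316 and 1326 CPM after sham surgery. All 3 were present in every library, and none passed the test. The 14 macrophage markers, which include these 3, summed to 13811 to 20270 CPM after pMCAO and 20141 to 27010 CPM after sham surgery. All of the 14 but Mertk had a lower mean after pMCAO, and none passed. The summed level of 10 blood endothelial markers was 459 to 696 CPM after pMCAO and 157 to 408 CPM after sham surgery. The 9 listed of 10 fibroblast markers summed to 483, 108 and 543 CPM in pMCAO 1 to 3, against 57.1 to 172 CPM in sham libraries. Mitochondrial ribosomal RNA took 8.26% to 12.6% of counts after pMCAO and 2.42% to 5.82% after sham surgery. The 8 listed of 9 large peritoneal macrophage markers summed to 163, 420 and 47.49 CPM in pMCAO 1 to 3, against 19.9 to 47.47 CPM in sham libraries. The 3 listed of 7 adipocyte markers summed to 273, 636 and 149 CPM in pMCAO 1 to 3, against 79.3 to 215 CPM in sham libraries. After pMCAO the largest parts of these sums by group mean were Saa3 and Fabp4. Saa3 averaged 141 CPM after pMCAO and 3.29 CPM after sham surgery, and Fabp4 312 and 124 CPM. Icam2 and Pparg had lower means after pMCAO (log2 changes -0.32 and -0.16), and the other listed genes of both lists had higher means. Gata6, Adipoq, Plin1, Lep and Cidec were not listed.

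The sequence of the receptor's binding element was found in the start region of a single target. The receptor's palindrome, with the arms AGAACA and TGTTCT 3 bases apart, was searched on both strands in the 300 bases around each annotated start (250 before and 50 after), in RefSeq sequences of GRCm38.p6. Of 32851 such windows in the mouse genome table, 3 held it, a share of 0.00913%. A window of Sgk1 was among them, out of 16 windows matched for 8 of the 10 genes. Zbtb16 and Nr3c1 had no entry. The 250 bases before the start of that Sgk1 window (chr10:21993640-21993889, plus strand, within an intron of the longer Sgk1 transcripts of GENCODE M21) are shown because Sgk1 is among the genes with higher levels after pMCAO, and the capitals mark the palindrome.
Sgk1: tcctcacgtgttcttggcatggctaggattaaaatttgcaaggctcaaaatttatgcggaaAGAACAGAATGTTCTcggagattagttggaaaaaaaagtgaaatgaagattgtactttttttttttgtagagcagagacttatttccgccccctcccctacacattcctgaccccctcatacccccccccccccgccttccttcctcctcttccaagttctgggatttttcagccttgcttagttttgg
The match lies 189 to 175 bases before the start. A single arm, AGAACA on either strand, was in 4 of the 16 windows, of Sgk1 and Tsc22d3, against 19.0% of all windows. Of the 16 windows, 6 were of Sgk1. Sequence outside the windows was not searched, so a window without a match does not show that a gene lacks an element. A match describes these letters in this window and is not evidence of binding.

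The metallothionein genes Mt1 and Mt2 are neighbours on chromosome 8 and are induced by metals through the element core TGCACNC or TGCGCNC as well as by glucocorticoids. Their start regions are shown because the 2 genes had unlike log2 changes, with the core matches in capitals.
Mt1: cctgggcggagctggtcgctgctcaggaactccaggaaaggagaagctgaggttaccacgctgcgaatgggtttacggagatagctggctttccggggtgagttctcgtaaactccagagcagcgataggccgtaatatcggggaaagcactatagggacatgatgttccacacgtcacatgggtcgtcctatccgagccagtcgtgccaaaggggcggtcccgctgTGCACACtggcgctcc
Mt2: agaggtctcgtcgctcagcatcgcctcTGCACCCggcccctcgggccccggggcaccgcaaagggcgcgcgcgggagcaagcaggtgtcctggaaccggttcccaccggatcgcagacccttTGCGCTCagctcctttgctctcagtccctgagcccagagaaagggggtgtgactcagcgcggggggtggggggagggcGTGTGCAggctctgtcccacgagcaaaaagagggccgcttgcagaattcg
The Mt1 stretch is chr8:94178839-94179081 and the Mt2 stretch chr8:94172368-94172617, both of GRCm38.p6 and on the plus strand. The Mt1 stretch ends 8 bases before its annotated start and the Mt2 stretch 1 base before its own. The whole windows, which run on to 50 bases after the start, hold 3 matches for Mt1 and 4 for Mt2, of which 1 and 3 lie in the stretches shown. Sequence outside the windows was not searched, and a link of these matches to the unlike log2 changes was not tested. Of all windows, 12.6% held TGCACNC and 15.4% held TGCGCNC on either strand.

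The 10 genes were split by whether the pMCAO and sham libraries overlapped. In 6 of them (Zbtb16, Klf9, Ddit4, Sgk1, Fkbp5 and Mt2) every pMCAO library lay above every sham library, with log2 changes of 0.88 to 1.66. Of all listed genes, 5.99% did so, while every pMCAO library lay below every sham library in 0 of the 10 and in 6.58% of all. In the other 4 (Nr3c1, Tsc22d3, Per1 and Mt1) the groups overlapped and the log2 changes were -0.02 to 0.03. Equal levels are not shown by this, as the 95% interval of Tsc22d3, for example, ran from -0.58 to 0.62. By the edgeR quasi-likelihood test with Benjamini-Hochberg adjustment over all 17209 genes, Zbtb16 rose and the other 9 did not pass the threshold of 0.05, which 17 genes passed in all (0.0988%). The threshold was passed in the higher direction by 0.0697% of genes and in the lower by 0.0291%. At an unadjusted p under 0.05, 6 of the 10 genes were higher and 0 lower, where 6.97% of all genes were higher and 6.47% lower. The median log2 change was 0.92 for the 10 genes and -0.02 for all genes. The genes were chosen with results of these data known, so these counts are a description.

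**Figure D1:**
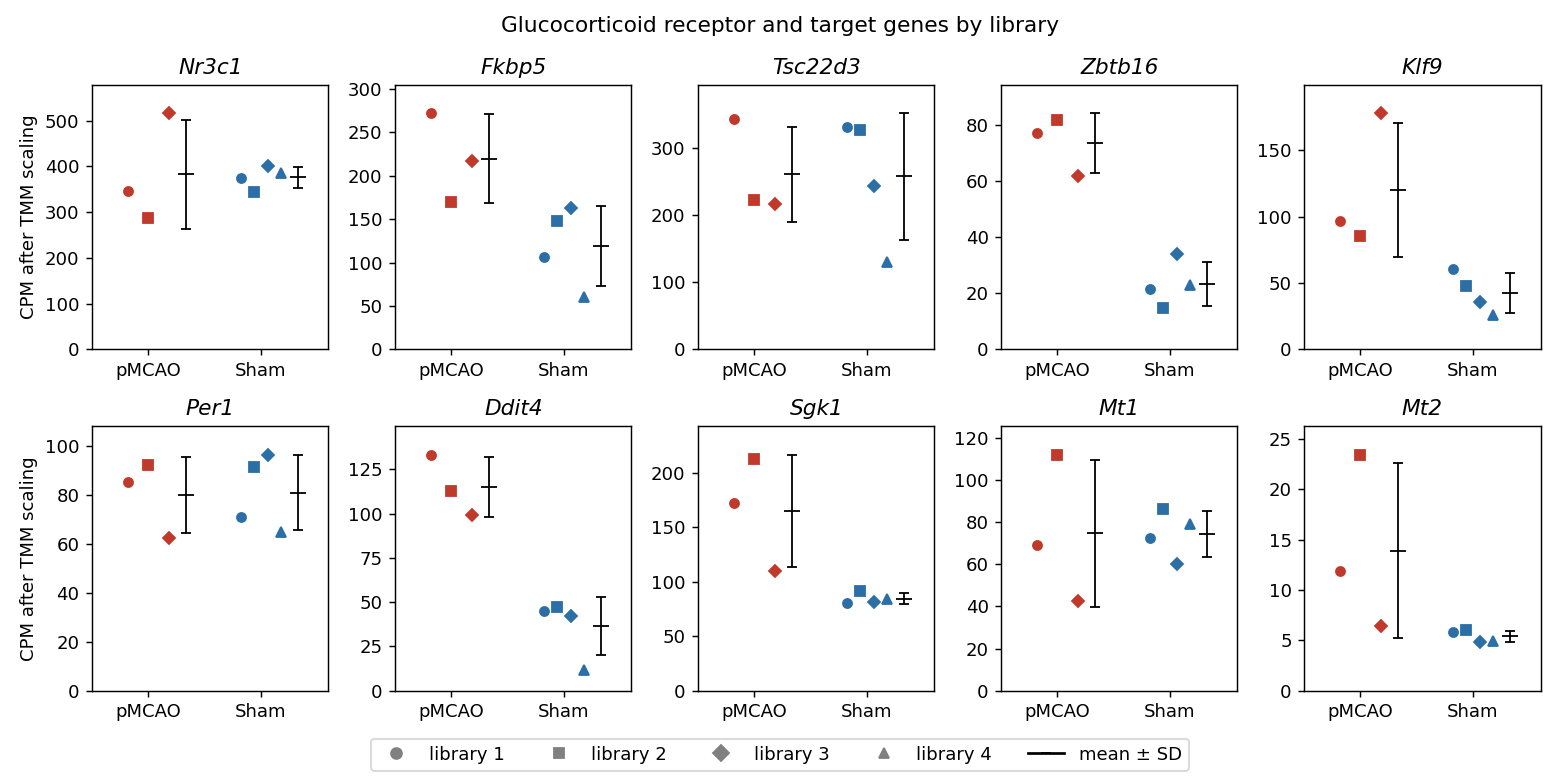
CPM after TMM scaling (vertical axes, from 0) of the 10 genes in each pMCAO library (red) and Sham library (blue), with mean ± SD as black bars. Zbtb16 and Ddit4 show the widest gaps between groups, with pMCAO libraries at 61.7 CPM or more and 99.4 CPM or more, while Nr3c1, Tsc22d3, Per1 and Mt1 overlap.

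Nr3c1, which encodes the receptor (ENSMUSG00000024431, chromosome 18, 39410545 to 39519421 of GRCm38), was at 345, 287 and 516 CPM in pMCAO 1 to 3, against 374, 345, 401 and 385 CPM in Sham 1 to 4. The sham libraries lay close together, and the pMCAO libraries lay on both sides of them, with pMCAO 3 the highest and pMCAO 2 the lowest of all 7. The coefficient of variation was 31.1% after pMCAO and 6.28% after sham surgery. The log2 change was 0.03 (95% interval -0.40 to 0.45, adjusted p = 0.972). The depth behind these values was 4043 to 9209 counts per pMCAO library and 7287 to 14003 counts per sham library.

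Fkbp5 encodes FKBP51, a co-chaperone that binds HSP90 in the receptor complex, lowers the affinity for hormone and closes a negative feedback loop. The gene (ENSMUSG00000024222, chromosome 17, 28399094 to 28517527) was at 272, 169 and 217 CPM in pMCAO 1 to 3, against 107, 147, 163 and 59.9 CPM in Sham 1 to 4. The groups did not overlap, but pMCAO 2 lay only just above Sham 3. The log2 change was 0.88 (SE 0.28, 95% interval 0.28 to 1.48), which did not pass over all genes (adjusted p = 0.208).

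Tsc22d3 encodes GILZ, a leucine zipper protein that carries part of the anti-inflammatory action of glucocorticoids. The gene (ENSMUSG00000031431, chromosome X, 140539528 to 140600659) was at 343, 223 and 217 CPM in pMCAO 1 to 3, against 331, 327, 243 and 130 CPM in Sham 1 to 4. The groups overlapped, with pMCAO 1 the highest of all 7 libraries and Sham 4 the lowest. The log2 change was 0.02 (95% interval -0.58 to 0.62, adjusted p = 0.987).

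Zbtb16 encodes PLZF, a zinc finger transcription factor and one of the most strongly induced receptor targets in many human and mouse cells. The gene (ENSMUSG00000066687, chromosome 9, 48654297 to 48836222) was at 77.3, 81.9 and 61.7 CPM in pMCAO 1 to 3, against 21.5, 14.9, 33.9 and 23.1 CPM in Sham 1 to 4. The lowest pMCAO library lay well above the highest sham library. Zbtb16 rose 3.15-fold, by 1.66 on the log2 scale (SE 0.26, adjusted p = 0.0240), the tenth smallest p of the table. The call was lost without pMCAO 1 (log2 change 1.62, adjusted p = 0.187), pMCAO 3 (1.77, 0.0592) or Sham 4 (1.65, 0.0982). It was also lost when a stromal score, over 19 endothelial and fibroblast genes, entered the fit (2.37, 0.362). Without pMCAO 1, 0 of all genes passed, as in the fit with the score. The score was 1.83, 0.69 and 1.52 in pMCAO 1 to 3, against -0.22, 0.96, -0.47 and -0.27 in Sham 1 to 4, and its part in the result was not tested beyond that fit.

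Klf9 encodes a Krüppel-like transcription factor that the receptor activates directly and that links stress hormone signals to the clock and to cell differentiation. The gene (ENSMUSG00000033863, chromosome 19, 23141226 to 23168134) was at 96.7, 85.2 and 178 CPM in pMCAO 1 to 3, against 60.4, 47.6, 36.0 and 25.8 CPM in Sham 1 to 4. The groups did not overlap, and pMCAO 3 stood above the other two. Its log2 change was 1.50 (SE 0.30), and missed the threshold (adjusted p = 0.0614). Leaving out single libraries gave 1.10 (adjusted p = 0.232, without pMCAO 3, the highest library) to 1.72 (adjusted p = 0.0409, without Sham 1). It passed without Sham 1 and without pMCAO 2 (1.70, adjusted p = 0.0333), and in none of the other 5.

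Per1 encodes a repressor of the circadian clock whose gene also responds quickly to glucocorticoids and to cAMP. The gene (ENSMUSG00000020893, chromosome 11, 69095217 to 69109960) was at 85.2, 92.2 and 62.3 CPM in pMCAO 1 to 3, against 70.9, 91.5, 96.5 and 64.9 CPM in Sham 1 to 4. Both groups covered the same range. Per1 had a log2 change of -0.02 (95% interval -0.46 to 0.43, adjusted p = 0.981).

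Ddit4 encodes REDD1, an inhibitor of mTORC1 that hypoxia, energy stress and glucocorticoids induce. The gene (ENSMUSG00000020108, chromosome 10, 59949669 to 59951834) was at 133, 113 and 99.4 CPM in pMCAO 1 to 3, against 45.0, 47.1, 42.1 and 11.8 CPM in Sham 1 to 4. All pMCAO libraries lay far above all sham libraries, and Sham 4 lay far below the other sham libraries. The log2 change was 1.66 (SE 0.37, adjusted p = 0.115), as large as that of Zbtb16 with a wider error. Without Sham 4 it was 1.36 (SE 0.21, adjusted p = 0.0322), and without any other single library 1.54 to 1.81 (adjusted p = 0.106 to 0.253).

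Sgk1 encodes a serine/threonine kinase of sodium transport and cell survival, first known as a serum and glucocorticoid induced gene. The gene (ENSMUSG00000019970, chromosome 10, 21882184 to 21999903) was at 172, 212 and 110 CPM in pMCAO 1 to 3, against 80.5, 91.5, 81.2 and 84.3 CPM in Sham 1 to 4. The sham libraries were tightly grouped (coefficient of variation 5.97%), while the pMCAO libraries spread widely (31.3%) above them. Sgk1 had a log2 change of 0.97 (SE 0.21, adjusted p = 0.0760). Leaving out single libraries gave 0.74 (adjusted p = 0.103, without pMCAO 2, the highest library) to 1.19 (adjusted p = 0.0313, without pMCAO 3), and the adjusted p was 0.0962 to 0.247 without any of the other 5.

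Mt1 and Mt2 encode small cysteine-rich proteins that bind zinc and copper. Mt1 (ENSMUSG00000031765, chromosome 8, 94179082 to 94180327) was at 69.3, 112 and 42.7 CPM in pMCAO 1 to 3, against 72.4, 86.1, 60.2 and 79.0 CPM in Sham 1 to 4. The pMCAO libraries lay below, above and within the sham range, at a log2 change of 0.01 (95% interval -0.57 to 0.58, adjusted p = 0.996). Mt2 (ENSMUSG00000031762, chromosome 8, 94172664 to 94173568) was at 11.9, 23.5 and 6.39 CPM in pMCAO 1 to 3, against 5.80, 5.98, 4.84 and 4.95 CPM in Sham 1 to 4. Its groups did not overlap, though pMCAO 3 lay only just above the sham libraries, and the log2 change was 1.37 (SE 0.42, adjusted p = 0.192). Without pMCAO 2 the change of Mt2 was 0.76 (adjusted p = 0.363), and without pMCAO 3 it was 1.71 (adjusted p = 0.177). Mt2 rests on 114 to 498 counts per pMCAO library and 96 to 180 counts per sham library. An exon of the antisense gene Gm45774 overlaps Mt2, and without a stated strand setting reads of the pair cannot be told apart. Similarity of Mt1 and Mt2 could also make the assignment of their reads uncertain, which was not tested.

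**Figure D2:**
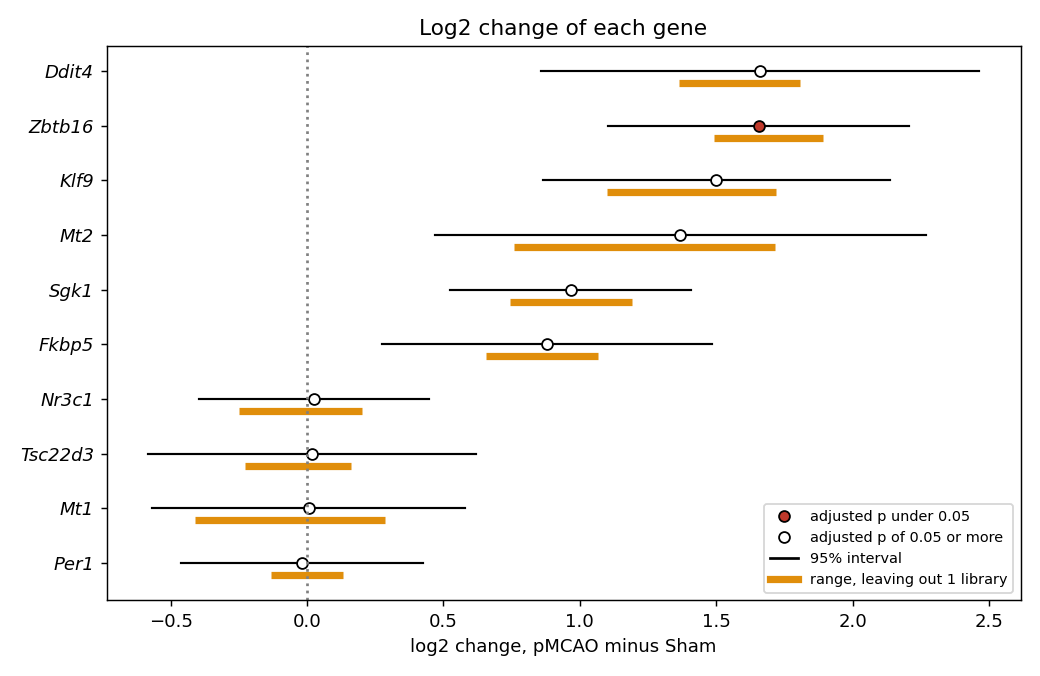
Log2 change (pMCAO minus Sham, horizontal axis) of each gene with its 95% interval (black line) and the range when each library was left out in turn (orange bar). Zbtb16 (1.66) is the filled point past the threshold, and the intervals of Nr3c1, Tsc22d3, Mt1 and Per1 span 0.

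Ratios within a library do not depend on the scaling between libraries, and 4 were compared. Mt2 to Mt1 count ratios were 0.171, 0.209 and 0.150 in pMCAO 1 to 3, against 0.0801, 0.0694, 0.0805 and 0.0626 in Sham 1 to 4. Each pMCAO library thus lay well above the sham libraries, at a mean of 0.177 ± 0.0301 (SD, n = 3) after pMCAO and 0.0732 ± 0.00868 (SD, n = 4) after sham surgery. The two-sided exact permutation p was 0.0571, the smallest that 3 against 4 libraries allow, and 0.114 when adjusted over the 4 ratios. The Zbtb16 to Nr3c1 ratio did not overlap between groups either, at 0.224, 0.285 and 0.119 in pMCAO 1 to 3, against 0.0575, 0.0431, 0.0846 and 0.0601 in Sham 1 to 4 (exact permutation p = 0.0571, adjusted p = 0.114). Fkbp5 to Nr3c1 averaged 0.599 ± 0.184 after pMCAO and 0.319 ± 0.125 after sham surgery, with pMCAO 3 (0.420) below Sham 2 (0.427) and an exact permutation p of 0.114. Tsc22d3 to Nr3c1 averaged 0.730 ± 0.289 after pMCAO and 0.695 ± 0.280 after sham surgery (exact permutation p = 0.800). The groups overlapped in both of these ratios.

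**Figure D3:**
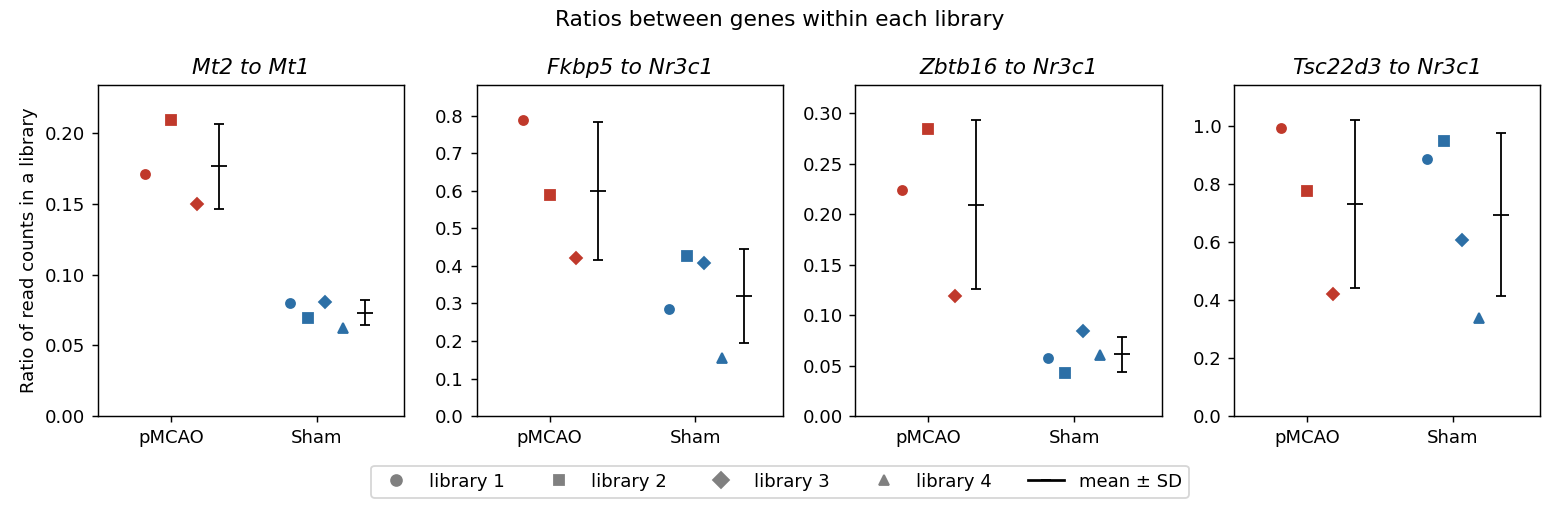
Count ratios between genes within each library (vertical axes, from 0) for pMCAO (red) and Sham (blue), with mean ± SD as black bars. The Mt2 to Mt1 and Zbtb16 to Nr3c1 ratios do not overlap between groups, and the lowest pMCAO values there are 0.150 and 0.119.

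Levels of different genes were compared per exon length, as TPM (a length-scaled share of the library) computed from the counts and GENCODE M21 exon lengths. In sham libraries Mt1 (169 ± 22.9 TPM, SD, n = 4), Tsc22d3 (166 ± 54.7 TPM) and Nr3c1 (139 ± 15.2 TPM) were the highest and did not differ from each other beyond their spread. The 3 genes lay above 95.3% or more of the genes with a length. Ddit4 (58.1 ± 25.7 TPM), Sgk1 (48.7 ± 3.41 TPM), Per1 (40.7 ± 8.46 TPM) and Fkbp5 (35.6 ± 14.2 TPM) followed, with ranges that overlapped from each gene to the next. Mt2 (25.8 ± 1.52 TPM) and Klf9 (24.6 ± 7.43 TPM) overlapped too, and Zbtb16 was the lowest (12.6 ± 4.81 TPM), with a range that met that of Klf9.

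After pMCAO the order differed at the upper end and within the lower genes. Ddit4 was the highest (170 ± 15.3 TPM, SD, n = 3), next to Tsc22d3 (155 ± 33.3 TPM), Mt1 (151 ± 56.1 TPM) and Nr3c1 (135 ± 63.9 TPM), none of which differed from it beyond the spread. Sgk1 (85.4 ± 16.8 TPM), Klf9 (68.0 ± 40.0 TPM), Fkbp5 (60.6 ± 15.8 TPM) and Mt2 (58.8 ± 31.9 TPM) overlapped with each other. Per1 (36.4 ± 2.37 TPM) and Zbtb16 (35.9 ± 0.933 TPM) were at the same level after pMCAO.

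**Figure D4:**
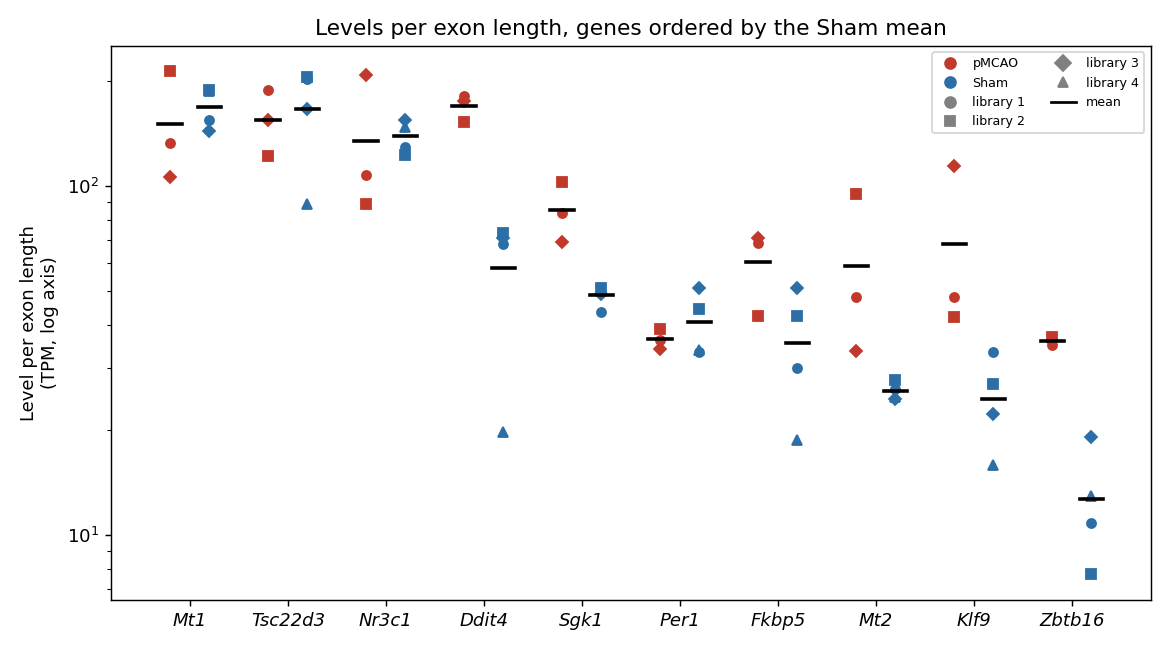
Level per exon length (TPM, log axis) of each gene by library, pMCAO (red) left of Sham (blue), with black lines at the means and genes ordered by the Sham mean. Zbtb16 is the lowest gene in Sham (12.6 TPM), and Ddit4 is the highest after pMCAO (170 TPM).

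The other genes of the pathway were described by lists, with no test of a list. Of 9 listed genes of receptors and ligand handling, which include Nr3c1, 0 passed in either direction, with a median log2 change of 0.04. Abcb1a, a drug transporter that exports corticosteroids from cells, averaged 60.6 ± 17.2 CPM (SD, n = 3) after pMCAO and 22.3 ± 13.7 CPM (SD, n = 4) after sham surgery. Its log2 change was 1.44 (adjusted p = 0.192), and the groups did not overlap. Hsd11b1, whose enzyme regenerates active corticosterone, was low at 7.18 ± 5.29 CPM after pMCAO and 3.81 ± 2.45 CPM after sham surgery (adjusted p = 0.517). Nr3c2, the mineralocorticoid receptor, averaged 18.1 CPM after pMCAO and 15.3 CPM after sham surgery (log2 change 0.24, adjusted p = 0.786). Srd5a3, of the steroid 5-alpha-reductase family, had a log2 change of -0.63 (adjusted p = 0.371).

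Of 14 genes of the chaperone complex, which include Fkbp5, 0 passed, and the median was -0.16. Fkbp4 encodes FKBP52, the co-chaperone that competes with FKBP51 and favours transport of the receptor to the nucleus. It was at 13.7 to 27.3 CPM in pMCAO libraries, against 24.5 to 39.5 CPM in sham libraries, with an overlap between pMCAO 2 and Sham 2. The log2 changes were -0.69 for Fkbp4 (adjusted p = 0.308) and 0.88 for Fkbp5. The HSP90 co-chaperone Stip1 (-0.56, adjusted p = 0.284) and the HSP40 gene Dnajb1 (-0.54, adjusted p = 0.288) had negative values that did not pass either. Of 17 coregulator genes 0 passed, with a median of 0.19. The coactivator Ncoa1 averaged 219 ± 38.1 CPM after pMCAO and 137 ± 17.6 CPM after sham surgery (log2 change 0.68, adjusted p = 0.141), the corepressor Ncor1 487 ± 35.4 and 358 ± 37.6 CPM (0.44, 0.258), and the mediator subunit Med14 had a log2 change of 0.38 (0.363).

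Among 39 listed further induced targets, 1 rose, 0 fell and the median was 0.17. The gene that rose was Hif3a, of the hypoxia-inducible factor family, at 95.1, 92.7 and 121 CPM in pMCAO 1 to 3, against 5.49, 4.60, 11.8 and 2.09 CPM in Sham 1 to 4. Sult1a1, a sulfotransferase, averaged 297 ± 19.3 CPM after pMCAO and 187 ± 35.8 CPM after sham surgery (log2 change 0.67, adjusted p = 0.139). Fam107a, an actin-associated protein gene, was at 20.8, 5.84 and 6.67 CPM in pMCAO 1 to 3, against 2.67, 4.77, 1.11 and 0.52 CPM in Sham 1 to 4 (log2 change 2.29, adjusted p = 0.186). In both, the groups did not overlap. Of the 39 genes, 12 were higher and 2 lower at an unadjusted edgeR p under 0.05, where 6.97% of all genes were higher and 6.47% lower. The list was chosen with earlier results of these data known, so these counts too are a description.

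Of 21 listed genes that glucocorticoids repress in macrophages, 0 rose, 1 fell and the median was -0.08. The gene that fell was the collagenase Mmp13, at 43.5, 50.9 and 55.0 CPM in pMCAO 1 to 3, against 158, 117, 137 and 146 CPM in Sham 1 to 4. Ptgs2, the inducible cyclooxygenase, was at 40.5, 20.4 and 38.2 CPM in pMCAO 1 to 3, against 10.4, 13.3, 12.8 and 8.49 CPM in Sham 1 to 4. It lay higher in every pMCAO library, but missed the threshold (log2 change 1.56, adjusted p = 0.0577), as did the neutrophil chemoattractant Cxcl2 (0.84, adjusted p = 0.0614). Il1b and Tnf had log2 changes of -0.57 (adjusted p = 0.377) and 0.07 (adjusted p = 0.942). Of the 21 genes, 2 were higher and 2 lower at an unadjusted edgeR p under 0.05, against 6.97% and 6.47% of all genes.

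None of the 12 listed paralogs of the 10 genes passed, and their median was 0.04. The Tsc22d3 relatives Tsc22d1, Tsc22d2 and Tsc22d4 had log2 changes of 0.06, 0.50 and -0.42, the Per1 relatives Per2 and Per3 0.07 and 0.24, and the Sgk1 relative Sgk3 0.19. Klf13 and Klf16, of the Klf9 family, stood at 0.02 and -1.09, and Zbtb20 and Zbtb32, of the Zbtb16 family, at 0.58 and -0.96. Klf16 was low, at 1.47 CPM after pMCAO and 3.12 CPM after sham surgery (SE of the log2 change 0.60). Zbtb32 was lower still, at 0.47 and 0.90 CPM (SE 1.02), while Zbtb20 averaged 461 and 308 CPM (SE 0.18). None of the 9 metal-responsive genes, which include Mt1 and Mt2, passed, and their median was 0.15. Slc30a1, the zinc exporter that MTF1 induces, averaged 58.0 ± 3.87 CPM after pMCAO and 39.1 ± 5.33 CPM after sham surgery, without overlap (log2 change 0.57, adjusted p = 0.235). Hmox1, the heme oxygenase gene, was at 94.5, 211 and 97.0 CPM in pMCAO 1 to 3, against 85.4 to 93.3 CPM in sham libraries. Its highest value was in pMCAO 2, as were those of Mt1 and Mt2. The gene of the metal sensor MTF1 itself, Mtf1, had a log2 change of -0.32 (adjusted p = 0.535).

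**Figure D5:**
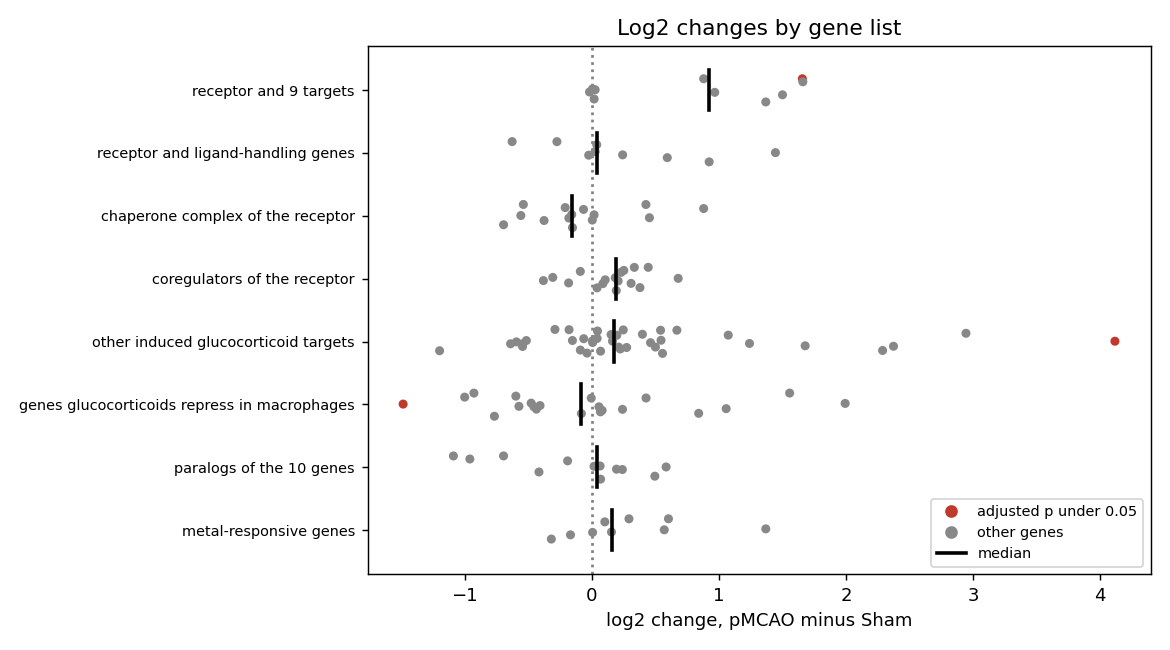
Log2 changes (pMCAO minus Sham, horizontal axis) of the 10 genes and of the lists of pathway genes, 1 point per gene, with black bars at the medians and red points past the threshold. The median of the 10 genes is 0.92, and those of the other lists lie between -0.16 and 0.19. The receptor, chaperone and metal lists include some of the 10 genes.

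The libraries also differed within groups. Sham 4 had the lowest level of 5 genes among sham libraries (Fkbp5, Tsc22d3, Klf9, Per1 and Ddit4) and the highest of 0. The library pMCAO 3 had the lowest level of 7 genes among pMCAO libraries and the highest of Nr3c1 and Klf9. The highest levels of Zbtb16, Per1, Sgk1, Mt1 and Mt2 among pMCAO libraries were in pMCAO 2. That library also had the highest sums of peritoneal macrophage and adipocyte markers, though pMCAO 1 too lay above every sham library in both. By group mean, Saa3 and Fabp4 made up the largest parts of those sums after pMCAO. Fewer cells of a type and less RNA per cell cannot be told apart in these bulk samples. Leaving out the mitochondrial ribosomal RNA rows gave 17 genes called by edgeR, with Zbtb16 at 1.66 (adjusted p = 0.0242). What else goes with the share of that RNA was not tested. The part of endothelial and fibroblast RNA in these differences was not tested beyond the covariate fit given for Zbtb16. In the covariate fit the log2 changes of the other genes with no overlap were 1.08 for Klf9, 1.31 for Ddit4, 1.07 for Sgk1, 0.42 for Fkbp5 and 1.70 for Mt2. None of them passed, as 0 of all 17209 genes did. Their unadjusted edgeR p-values were 0.060, 0.038, 0.0071, 0.38 and 0.014 in that order, and 6.0e-05 for Zbtb16. The SE was 0.52 for Klf9 and 0.47 for Fkbp5, against 0.30 and 0.28 without the score.

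The library profile most like that of each of 3 genes was found among 11588 genes of at least 5 CPM, by the root mean square difference of centred log2 CPM over the 7 libraries. For Nr3c1 these were Lrch3 and Casd1, at differences of 0.06 each. For Tsc22d3 they were Pparg (0.18) and Timmdc1 (0.21). For Zbtb16 they were RP23-434H17.3 (0.28) and Platr25 (0.30), both at lower levels, while its nearest gene among the other 9 was Sgk1 (0.54).

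The authors' deposited table gives fold changes from a model that is not given in the sources used here. In the authors' deposited table, Zbtb16 had a log2 fold change of 2.20 (FDR 0.0779), Klf9 1.49 (0.146), Ddit4 1.27 (0.215), Fkbp5 0.71 (0.419), Sgk1 0.57 (0.347) and Mt2 0.48 (0.698). The values in the authors' deposited table were 0.30 for Nr3c1 (FDR 0.573), -0.27 for Tsc22d3 (0.710), -0.35 for Per1 (0.586) and -0.70 for Mt1 (0.298). None of the 10 passed an FDR of 0.05 there. The 6 genes without overlap had the 6 most positive values in the authors' deposited table, which rests on the same libraries, while Mt1 was larger in size than Sgk1 and Mt2 with the opposite sign.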

How the data were processed

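RNA-seq libraries of sorted muscularis macrophages were made from 2.0 ng of total RNA, per the labels' protocols. The deposited values are read counts per gene. STAR, featureCounts, limma and the build GRCm38 (mm10) are named in the submitters' processing notes, and no source used here states versions or a strand setting. The deposited CPM values equal count over library total to within 0.0005. The log2 fold changes, p-values and FDR in the deposited table are the authors'. Every listed gene exceeds 0.5 CPM in at least 4 of 7 libraries, so a gene expressed in pMCAO libraries alone would not be listed.

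The counts were tested with the edgeR 4.0.16 quasi-likelihood F test (R 4.3.3, robust, TMM factors, expression filter, group as the only term), two-sided, with Benjamini-Hochberg adjustment over 17209 genes and a threshold of 0.05. Intervals are 95% and use the moderated degrees of freedom. A count of 3 is 0.0871 to 0.236 CPM, for counting error only. GENCODE M21 held 99.5% of the gene identifiers. The genes, lists and alternatives were chosen with earlier results of these data known. All 10 genes are named, with the 3 other genes of smallest p in each list, genes past the threshold, named paralogs, 3 macrophage genes and nearest profiles. A few more were named after their values were seen (Nr3c2, Il1b, Tnf, Saa3, Fabp4, Icam2 and Mertk). Alternatives covered scaling, filters, DESeq2 1.42.0, limma-voom (limma 3.58.1), a replicate block, each library left out, thinning, a marker covariate and, added after seeing the data, removal of mitochondrial ribosomal RNA.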

Additional observations from a re-analysis of the deposited data

Results flagged for a closer look

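Ddit4 in Sham 4 was far from the other sham libraries. Its level there was 11.8 CPM, against 42.1 to 47.1 CPM in Sham 1 to 3, and the gap made up 0.857 of the whole range, above Dixon's 95% critical value for 4 samples. Such a test picks about 1 in 20 groups by chance, and the sham libraries were examined in 10 genes and 4 ratios. Without Sham 4 the log2 change of Ddit4 was 1.36 (adjusted p = 0.0322), against 1.66 (adjusted p = 0.115) with it. The cause was not tested.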

How the results depend on the processing

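The edgeR test called 17 genes in all and 1 of the 10. Genes called numbered 34 with upper-quartile factors, 29 without scaling (14 higher and 15 lower, against 12 and 5), 75 at a mean of 5 CPM or more, 470 with DESeq2, 35 with limma-voom, 818 with sample weights added to limma-voom, 43 after thinning and 98 at an adjusted p under 0.10. With the stromal score as a covariate 0 passed, with 1086 genes at an unadjusted p under 0.05. Leaving out single libraries gave 0 (without pMCAO 1, with 1987 at an unadjusted p under 0.05) to 100 (without pMCAO 2). Of the 10, 3 passed at 5 CPM or more, 5 with DESeq2 (Zbtb16, Klf9, Ddit4, Sgk1 and Mt2), 5 with weighted limma-voom (Fkbp5 in place of Mt2), 3 at an adjusted p under 0.10, 0 with the stromal score and 0 to 2 when leaving out libraries. Their median log2 change of 0.92 became 0.74 with the stromal score and 0.75 to 1.01 when leaving out libraries. The 6 genes without overlap stayed positive under every alternative. They were picked for their separation in these same libraries, which leaving out a library keeps, so the sign there was all but fixed in advance. Signs near 0 turned. Per1 was at 0.0099 with upper-quartile factors, 0.050 with weighted limma-voom and -0.13 to 0.13 leaving out libraries. Nr3c1 was at -0.11 without scaling, -0.017 with limma-voom, -0.083 weighted, -0.048 with the stromal score and -0.25 to 0.20 leaving out libraries. Tsc22d3 was at -0.11 without scaling, -0.52 with the stromal score, 0.55 with weighted limma-voom (adjusted p = 0.236) and -0.23 to 0.16 leaving out libraries. Mt1 was at -0.11 without scaling, -0.083 with limma-voom, -0.10 weighted, -0.031 after thinning and -0.41 to 0.29 leaving out libraries. Without scaling, the median of all genes was -0.14, against -0.02. The cause of these shifts was not tested. A replicate block called 21 genes and 1 of the 10, Ddit4 (1.35, adjusted p = 0.0259), with Zbtb16 at 1.72 (0.0507), Nr3c1 at -0.0050, Tsc22d3 at -0.22 and Mt1 at -0.058. Sham 4 has no pMCAO library of its number, so it adds nothing to the contrast in that fit. The Ddit4 call there is therefore not separate from the call without Sham 4 (1.36, adjusted p = 0.0322). Same-numbered libraries correlated at -0.10, 0.01 and 0.18 in their deviations. The labels do not say that the numbers pair libraries, and so few correlations cannot decide whether they do.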
